A study of Mus musculus with 8 samples.

Results

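The genes followed here control the flow of carbon through glycolysis and gluconeogenesis in mouse liver: Slc2a2, Gckr, Pfkl, Pfkfb1, Pklr, Pcx, Pck1, Fbp1 and G6pc. They were chosen by symbol, which gave 9 of the 38283 genes listed, and all 9 were above 0 in every library and entered the tests, which covered 11634 genes. RNA was sequenced from livers of male C57BL/6 mice in 4 groups of 4 mice, which crossed 2 genotypes (RORα f/f and RORα LKO) with 2 diets. CD is a control diet and HFD a high-fat diet, and either was given for 10 weeks starting at 8 weeks of age. All mice carried Rora alleles with loxP sites around exons 4 and 5. RORα LKO mice also carried Cre driven by the albumin promoter, for deletion of Rora in the liver. Each library pooled the livers of 2 mice, so that every group had 2 libraries.

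Glycolysis breaks glucose down to pyruvate and gluconeogenesis rebuilds glucose from pyruvate, lactate, amino acids and glycerol. Most steps are shared, but some are catalysed by separate enzymes in the forward and the reverse direction, and these are the steps at which the liver switches between storing and releasing glucose. Glucose-6-phosphatase (G6pc) releases free glucose at the last step of gluconeogenesis. Phosphofructokinase (Pfkl) opposes fructose-bisphosphatase (Fbp1), and pyruvate kinase (Pklr) opposes the pair of pyruvate carboxylase (Pcx) and phosphoenolpyruvate carboxykinase (Pck1). Slc2a2 encodes the transporter GLUT2, Gckr a regulatory protein of hepatic glucose metabolism, and Pfkfb1 the bifunctional enzyme that makes and removes the allosteric signal for the phosphofructokinase step. In liver, insulin is known to lower transcription of Pck1 and G6pc, glucagon acts through cyclic AMP on Pck1 and G6pc, and RORα is a nuclear receptor that binds AGGTCA-type half-sites.

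The sequences just upstream of the genes whose RNA differed by diet are shown first, because the letters that insulin, cyclic AMP and nuclear receptors are known to act through can be looked for in them. They are the 250 bases before a RefSeq transcript start on GRCm38.p6, 5′ to 3′ on the strand of the gene, and capitals mark every match to the 6 short motifs searched on both strands. All 9 genes matched an entry, with 14 windows in all since Pcx, Pklr and Pfkfb1 have several starts. GENCODE M21 places the first base of G6pc, Pck1 and Gckr inside these RefSeq windows.

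G6pc, chr11:101367466-101367715, plus strand: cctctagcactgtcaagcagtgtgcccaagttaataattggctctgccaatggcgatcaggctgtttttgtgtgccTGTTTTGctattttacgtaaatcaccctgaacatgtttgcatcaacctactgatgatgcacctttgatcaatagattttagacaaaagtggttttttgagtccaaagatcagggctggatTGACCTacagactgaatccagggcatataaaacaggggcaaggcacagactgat
Pck1, chr2:173152823-173153072, plus strand: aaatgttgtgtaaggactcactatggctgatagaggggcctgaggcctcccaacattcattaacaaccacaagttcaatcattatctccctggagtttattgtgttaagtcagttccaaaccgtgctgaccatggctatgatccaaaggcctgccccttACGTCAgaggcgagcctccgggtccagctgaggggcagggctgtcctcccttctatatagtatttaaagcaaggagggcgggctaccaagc
Gckr, chr5:31297313-31297562, plus strand: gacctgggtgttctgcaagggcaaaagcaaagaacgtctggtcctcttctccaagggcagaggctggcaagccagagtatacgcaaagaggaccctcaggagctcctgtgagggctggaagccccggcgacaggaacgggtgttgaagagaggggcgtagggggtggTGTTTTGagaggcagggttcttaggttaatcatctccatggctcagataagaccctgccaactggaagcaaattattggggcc
Pcx, first of 2 starts, chr19:4510222-4510471, plus strand: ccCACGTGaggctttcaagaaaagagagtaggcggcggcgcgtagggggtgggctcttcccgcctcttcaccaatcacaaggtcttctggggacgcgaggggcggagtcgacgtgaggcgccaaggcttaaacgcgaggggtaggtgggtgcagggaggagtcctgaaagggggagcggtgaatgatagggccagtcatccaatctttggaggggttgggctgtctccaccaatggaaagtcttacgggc

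In the G6pc window the capitals mark CAAAACA, the core of the insulin response sequence, on the minus strand 174 to 168 bases before the start, and AGGTCA on the minus strand 54 to 49 bases before it. The Gckr window held CAAAACA on the minus strand 83 to 77 bases before the start. The Pck1 window held TGACGT, the cyclic AMP half-site, on the minus strand 91 to 86 bases before the start, which in the printed strand reads ACGTCA. The first Pcx window held the E-box CACGTG at its far end, 248 to 243 bases before the start. Of 32851 upstream windows of the same length in the mouse, 5.56% held CAAAACA, 6.47% held TGACGT and 6.02% held CACGTG. The forkhead motif GTAAACA was found in 3.17% of all windows and in none of the 14.

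The nuclear receptor half-site AGGTCA was in 14% of all windows and in 4 of these 14, those of G6pc, Pklr, Slc2a2 and 1 start of Pfkfb1. GGGTCA was in 11.6% of all windows and in 2 of the 14, a second start of Pcx and another start of Pfkfb1. The Pfkfb1 window that holds the first base of the gene in GENCODE M21, chrX:150587993-150588242, had no match to any of the 6 motifs. The matches near Pfkfb1 are shown because it was the gene that separated the libraries by genotype label, and that near Pklr because its genotype differences had opposite signs on the 2 diets. Each stretch has 15 bases on either side of the match, in capitals. These are matches of letters and not measured binding.

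Pfkfb1, chrX:150587229-150587264, plus strand: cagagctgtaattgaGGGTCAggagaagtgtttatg
Pfkfb1, chrX:150589801-150589836, plus strand: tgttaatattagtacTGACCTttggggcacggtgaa
Pklr, chr3:89135976-89136011, plus strand: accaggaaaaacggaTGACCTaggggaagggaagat

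Values are FPKM, fragments per kilobase of transcript scaled to the mapped fragments of a library, as the authors deposited them, and are given for the first and the second library of a group. Log2 fold changes, with their SE, are differences of group means of quantile-normalized log2(FPKM + 1) from limma, and adjusted p values are Benjamini-Hochberg values over the 11634 genes. A gene is called where this adjusted p is under 0.05. Between 10587 and 10706 genes were above 1 FPKM in a library, and 29.7% to 43.7% of the summed FPKM came from the 10 most abundant genes. Read counts were not used here, and with 2 pools per group each spread rests on a single difference. All 8 hepatocyte markers were expressed, but Alb, the most abundant of them, was listed at 0 in 4 libraries (1 LKO CD, 1 f/f HFD and both LKO HFD) and between 29902 and 30888 in the others. The pancreas markers Prss1, Ins2 and Cpa1 were at 0 in every library.

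Rora itself was checked first. It was at 8.85 and 8.59 FPKM in f/f CD, 7.96 and 8.18 in LKO CD, 7.56 and 7.86 in f/f HFD, and 7.30 and 8.02 in LKO HFD. The genotype labels were separated on CD but overlapped on HFD, with log2 differences of −0.10 ± 0.07 and 0.01 ± 0.07 (adjusted p = 0.613 and 0.974, limma). The value covers the whole gene, whereas Cre removes 2 exons, so that it does not check the deletion. The libraries are therefore named by their labels: f/f CD, LKO CD, f/f HFD and LKO HFD. The labels themselves read WT and KO, which are taken here as the f/f and LKO of the study.

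Between the diets, 4 of the 9 genes changed when the genotype labels were averaged. G6pc and Pck1, the enzymes that release glucose and that commit oxaloacetate to gluconeogenesis, fell on HFD, while Pcx, which makes oxaloacetate from pyruvate, and Gckr rose. G6pc fell by 2.04 ± 0.10 on the log2 scale (adjusted p = 0.000531), Pck1 fell by 0.67 ± 0.16 (adjusted p = 0.0479), Pcx rose by 0.50 ± 0.07 (adjusted p = 0.00901) and Gckr rose by 0.28 ± 0.06 (adjusted p = 0.0402). By the same rule 9.89% of all genes tested were called. With an unadjusted p under 0.05, Fbp1 was added (5 of 9, against 27.9% of all genes). The median log2 difference of the 9 genes was −0.00, beside 0.01 for all genes, since the members moved in both directions. In FPKM, the 4 CD-fed and the 4 HFD-fed libraries did not overlap for G6pc, Pck1, Fbp1 and Pcx, a separation that 16.5% of all genes showed.

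**Figure D1:**
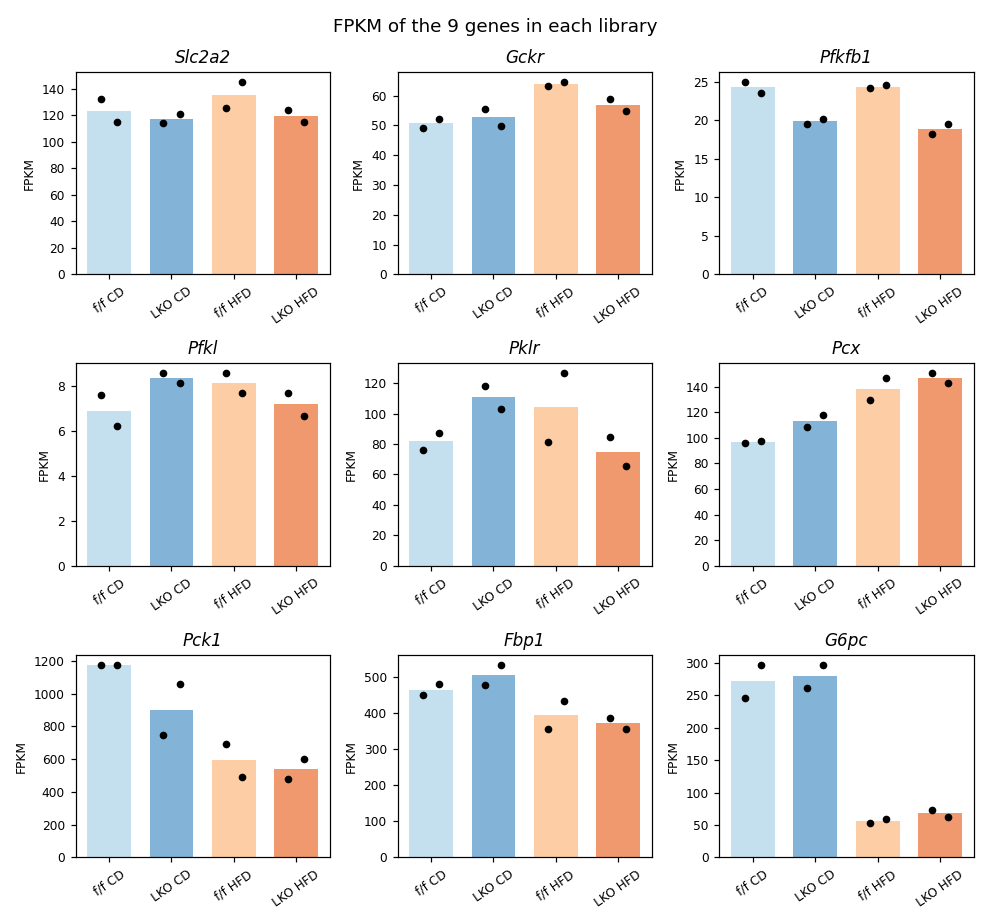
FPKM of the 9 genes, with a panel for each, in the 8 libraries; points are the libraries, bars the means of the 2 libraries of a group, and every axis starts at 0. G6pc stood between 246 and 298 in the CD-fed libraries and between 53.1 and 73.8 in the HFD-fed libraries, and Pfkfb1 was the gene in which all LKO-labelled libraries lay below all f/f-labelled ones.

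Taken by level, Pck1 was the most abundant of the 9 genes, with a mean of 802 FPKM over the 8 libraries, followed by Fbp1 at 435, G6pc at 169, Slc2a2 and Pcx both at 124, Pklr at 92.9, Gckr at 56.1, Pfkfb1 at 21.8 and Pfkl at 7.65. FPKM is scaled to transcript length, so that these levels can be set beside each other. Pck1 was above Fbp1 in each library, although their ranges over all libraries overlapped. Slc2a2 and Pcx could not be ordered, since 4 libraries had each order, and Pcx and Pklr overlapped in range. By group mean, G6pc went from place 3 on CD under both labels to place 7 in f/f HFD and place 6 in LKO HFD. Pcx went from place 5 on CD to place 3 on HFD, past Slc2a2, and Pklr from place 6 to place 5, while Gckr stood at place 7 except in f/f HFD, at place 6. The summed FPKM of the 9 genes was 1911 to 2339 on CD and 1382 to 1535 on HFD, and most of that sum was Pck1 and Fbp1.

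G6pc (ENSMUSG00000078650, chr11:101367561-101377903, plus strand) encodes the catalytic subunit of glucose-6-phosphatase, the last step of both gluconeogenesis and glycogen breakdown. It was at 246 and 298 FPKM in f/f CD, 262 and 297 in LKO CD, 53.1 and 59.7 in f/f HFD and 73.8 and 61.9 in LKO HFD. The lowest CD-fed library was above 3 times the highest HFD-fed one. The mean went from 276 ± 25.8 FPKM on CD to 62.1 ± 8.65 on HFD (SD, n = 4), 4.44-fold lower. G6pc had the p value of rank 4 among all genes tested in the averaged diet comparison. It fell by 2.18 ± 0.14 in the f/f-labelled (adjusted p = 0.00235) and fell by 1.91 ± 0.14 in the LKO-labelled libraries (adjusted p = 0.00681), and was the 1 member called in each of these comparisons, in which 1.33% and 3.02% of all genes were called. Both calls were lost when only the 4 libraries of the comparison were fitted (adjusted p = 0.0843 and 0.110). In these fits 5 and 0 of the 11634 genes were called, against 155 and 351 in the main fit.

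Pck1 (ENSMUSG00000027513, chr2:173153048-173159273, plus strand) encodes the cytosolic phosphoenolpyruvate carboxykinase. It was at 1173 and 1178 FPKM in f/f CD, 746 and 1058 in LKO CD, 693 and 491 in f/f HFD and 478 and 599 in LKO HFD. The diets did not overlap, but the 2 LKO CD libraries differed from each other by more than the gap between the diets. The mean was 1039 ± 203 FPKM on CD and 565 ± 101 on HFD (SD, n = 4), 1.84-fold lower. The log2 difference was −0.84 ± 0.23 in the f/f-labelled (adjusted p = 0.127) and −0.51 ± 0.23 in the LKO-labelled libraries (adjusted p = 0.264). The averaged call of Pck1 was lost when any 1 library other than the first LKO CD library was left out, with adjusted p of 0.0678 to 0.146. In these fits 374 to 656 of all genes were called, against 1151 with all 8 libraries.

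Fbp1 (ENSMUSG00000069805, chr13:62864753-62888282, minus strand), the liver fructose-bisphosphatase, was at 451 and 480 FPKM in f/f CD, 479 and 536 in LKO CD, 356 and 435 in f/f HFD and 386 and 358 in LKO HFD. All HFD-fed libraries lay below all CD-fed libraries, by a narrow margin. Its log2 difference of −0.25 ± 0.08 did not pass the threshold (adjusted p = 0.103) except without normalization between libraries, at −0.34 (adjusted p = 0.0455).

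Pcx (ENSMUSG00000024892, chr19:4510472-4621752, plus strand), the mitochondrial pyruvate carboxylase, went the other way. It was at 96.0 and 97.9 FPKM in f/f CD, 108 and 118 in LKO CD, 130 and 147 in f/f HFD and 151 and 142 in LKO HFD. All 4 HFD-fed libraries were above all CD-fed libraries, and the mean rose from 105 ± 10.03 to 142 ± 9.09 FPKM (SD, n = 4). The log2 difference was 0.54 ± 0.09 in the f/f-labelled (with an adjusted p just above the threshold) and 0.46 ± 0.09 in the LKO-labelled libraries (adjusted p = 0.0545). The first 2 steps from pyruvate to phosphoenolpyruvate, catalysed by Pcx and Pck1, thus had opposite diet differences.

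Gckr (ENSMUSG00000059434, chr5:31297443-31327314, plus strand) was at 49.1 and 52.3 FPKM in f/f CD, 55.6 and 50.0 in LKO CD, 63.2 and 64.8 in f/f HFD and 58.9 and 54.7 in LKO HFD. The ranges of the diets overlapped by 1 library on each side. The log2 difference was 0.38 ± 0.09 in the f/f-labelled and 0.17 ± 0.09 in the LKO-labelled libraries (adjusted p = 0.0925 and 0.317). Like that of Pck1, the averaged call of Gckr was lost when any library other than the first LKO CD library was left out (adjusted p 0.0711 to 0.120). That of Gckr was also lost without normalization between libraries (0.22, adjusted p = 0.0589).

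Slc2a2 (ENSMUSG00000027690, chr3:28697903-28731359, plus strand), through which glucose enters and leaves hepatocytes, had the narrowest range of the 9 genes. It was at 132 and 115 FPKM in f/f CD, 114 and 121 in LKO CD, 126 and 145 in f/f HFD and 124 and 115 in LKO HFD. Its diet difference was 0.14 ± 0.08 on the log2 scale (adjusted p = 0.289). The forward enzymes Pfkl and Pklr and the regulator Pfkfb1 had averaged diet differences of 0.04 ± 0.08, −0.06 ± 0.15 and −0.00 ± 0.05 (adjusted p = 0.811, 0.840 and 0.984). With an unadjusted p under 0.05, 4 of the 9 genes passed for diet in the f/f-labelled libraries (Pcx, Pck1, Gckr and G6pc) and 3 in the LKO-labelled libraries (Pcx, Fbp1 and G6pc), beside 19.2% and 21.3% of all genes.

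**Figure D2:**
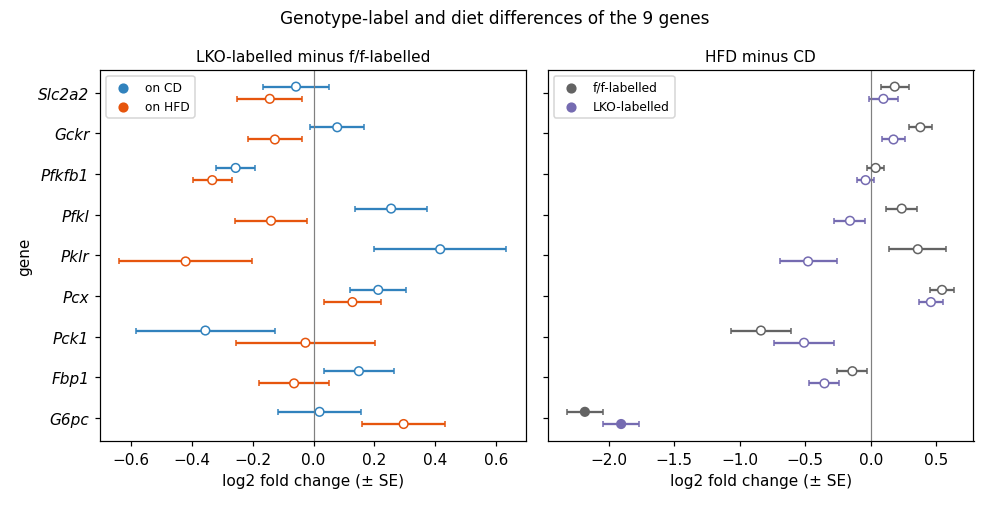
Log2 fold changes of the 9 genes with their SE (horizontal bars), for LKO-labelled minus f/f-labelled libraries on each diet (left) and for HFD minus CD under each label (right); filled points have an adjusted p under 0.05 in limma. G6pc on the right is the filled gene, at −2.18 and −1.91, and the points on the left lie between −0.42 and 0.42.

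Between the genotype labels none of the 9 genes was called. On HFD 0 of 9 passed, beside 0.043% of all genes, on CD 0 of 9 beside 0.0172%, and averaged over the diets 0 of 9 beside 0.103%, all with limma. With an unadjusted p under 0.05, 1 of 9 passed on HFD (9.58% of all genes) and 1 of 9 on CD (12.3%), Pfkfb1 both times, and 2 of 9 averaged over the diets (13.5%), Pfkfb1 and Pcx. The median log2 difference of the 9 genes was −0.13 on HFD and 0.08 on CD, beside −0.00 for all genes in both.

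Pfkfb1 (ENSMUSG00000025271, chrX:150588229-150643878, plus strand) was at 25.0 and 23.6 FPKM in f/f CD and 24.2 and 24.5 in f/f HFD. In the LKO-labelled libraries it was at 19.5 and 20.2 on CD and 18.2 and 19.5 on HFD. Each of the 4 LKO-labelled libraries was below each of the 4 f/f-labelled libraries, a separation in either direction that 4.91% of all genes showed and that Pfkfb1 alone showed among the 9. The mean was 24.3 ± 0.602 FPKM in the f/f-labelled and 19.3 ± 0.846 in the LKO-labelled libraries (SD, n = 4), a level 20.5% lower. The log2 difference was −0.26 ± 0.06 on CD and −0.33 ± 0.06 on HFD (unadjusted p = 0.00534 and 0.00132, adjusted p = 0.232 and 0.227). Averaged over the diets it was −0.29 ± 0.05 (unadjusted p = 0.000362, adjusted p = 0.0826), with adjusted p between 0.0552 and 0.239 over the alternatives tried. It thus did not pass the threshold in any of them.

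For the other genes the genotype differences had wide intervals. On HFD the LKO-labelled level of G6pc relative to the f/f-labelled one had a 95% interval of 0.981-fold to 1.54-fold, and that of Pck1 0.672-fold to 1.43-fold. Both LKO HFD libraries were above both f/f HFD libraries for G6pc, by 0.30 ± 0.14 on the log2 scale (adjusted p = 0.558). On CD these intervals were 0.810-fold to 1.27-fold for G6pc and 0.535-fold to 1.14-fold for Pck1. Pcx had an averaged genotype difference of 0.17 ± 0.07 (adjusted p = 0.324), with overlapping libraries. These intervals leave room for changes that 2 pools per group could not resolve.

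Pklr (ENSMUSG00000041237, chr3:89136142-89146784, plus strand), the liver and red cell pyruvate kinase, was at 76.2 and 87.3 FPKM in f/f CD, 118 and 103 in LKO CD, 81.6 and 127 in f/f HFD and 84.3 and 65.7 in LKO HFD. The LKO-labelled libraries were above the f/f-labelled ones on CD, while on HFD the groups overlapped and the 2 f/f-labelled libraries lay far apart. The genotype difference was 0.42 ± 0.22 on CD and −0.42 ± 0.22 on HFD (adjusted p = 0.493 and 0.606). The difference between these differences was −0.84 ± 0.31 (unadjusted p = 0.0308, adjusted p = 0.576). Pfkl (ENSMUSG00000020277, chr10:77986947-78010083, minus strand), the liver phosphofructokinase, was at 7.61 and 6.20 FPKM in f/f CD, 8.58 and 8.15 in LKO CD, 8.58 and 7.69 in f/f HFD and 7.71 and 6.69 in LKO HFD. Its genotype differences, 0.25 ± 0.12 on CD and −0.14 ± 0.12 on HFD, also had opposite signs (difference −0.39 ± 0.17, unadjusted p = 0.0510). In the test of whether the genotype difference depended on diet, 0 of the 9 genes were called with limma, beside 0.0344% of all genes, and 1 of 9, Pklr, had an unadjusted p under 0.05, beside 8.35%.

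Opposing enzymes were also compared within each library, as log2 ratios of their FPKM, which do not depend on how a library was scaled. Pfkl to Fbp1 was −6.00 ± 0.207 on CD and −5.65 ± 0.196 on HFD on the log2 scale (SD, n = 4). The difference of 0.36 had an exact two-sided permutation p of 0.0571, where 4 libraries against 4 allow 0.0286 at the lowest, and a p of 0.171 adjusted over 6 ratio tests, of which 4 are given. With single libraries left out it was 0.26 to 0.42 (exact permutation p of 0.0286 to 0.114), and passed 0.05 only without the first LKO CD library. Pklr to Pck1 was −3.43 ± 0.569 on CD and −2.68 ± 0.571 on HFD (difference 0.75, exact permutation p = 0.114, adjusted 0.229). By genotype label the log2 ratios differed by 0.03 for Pfkl to Fbp1 and by 0.26 for Pklr to Pck1 (exact permutation p = 0.886 and 0.657). In both ratios the enzyme of gluconeogenesis had the higher FPKM in all 8 libraries, and the diets overlapped.

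**Figure D3:**
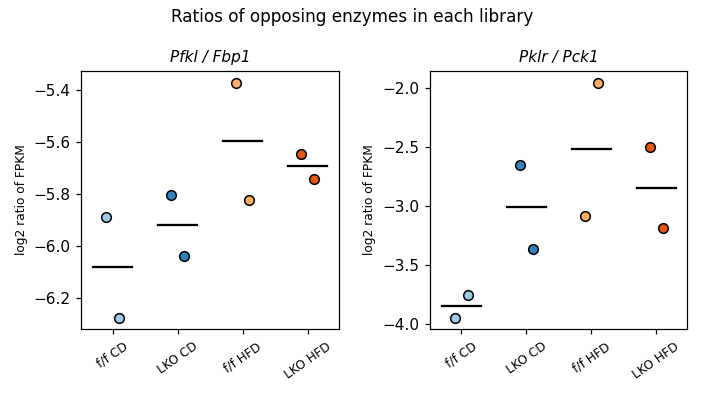
Log2 ratios of FPKM of opposing enzymes in each library, with a panel for each pair; points are libraries and lines the means of the 2 libraries of a group. Pfkl to Fbp1 lies between −6.27 and −5.37 and Pklr to Pck1 between −3.94 and −1.96, and in both panels the CD-fed and HFD-fed libraries overlap.

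The rest of the pathway was read from lists of related genes compiled by hand, in the diet comparison averaged over the labels, in which 9.89% of all genes were called. Of 14 glycolysis enzymes tested, 1 (7.14%) was called lower on HFD with limma and 0 higher, with 1 higher and 3 lower at an unadjusted p under 0.05 and a median log2 difference of 0.04 beside 0.01 for all genes. Aldoc, an aldolase isoform that is minor in liver, fell by 0.93 ± 0.14 (adjusted p = 0.0132). Of the 2 other fructose 2,6-bisphosphate enzymes tested, Pfkfb3 fell by 0.64 ± 0.14 (adjusted p = 0.0359). Pfkfb3 stood at 10.6 ± 2.27 FPKM in f/f CD and near 4 in the other groups (4.24 ± 0.793, 3.90 ± 0.802 and 3.83 ± 0.742, SD, n = 2), and its diet difference was −1.21 in the f/f-labelled and −0.07 in the LKO-labelled libraries. The difference between these did not pass the threshold (adjusted p = 0.526).

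Of 13 further gluconeogenesis enzymes and carriers, 4 were called higher and 1 lower (38.5% called, beside 9.89% of all genes). Got1, the cytosolic aspartate aminotransferase that moves oxaloacetate carbon out of mitochondria, fell by 1.48 ± 0.13 (adjusted p = 0.0036). Mpc1, a subunit of the mitochondrial pyruvate carrier that supplies pyruvate carboxylase, rose by 0.62 ± 0.06 (adjusted p = 0.0036), and G6pc3, the ubiquitous relative of G6pc, rose by 0.44 ± 0.09 (adjusted p = 0.0277) at a level of 4.77 FPKM on CD and 6.72 on HFD. Slc25a10 and Got2 rose by 0.28 and 0.19, and their calls were lost without normalization between libraries (adjusted p = 0.103 and 0.234). Slc37a4, the transporter that brings glucose 6-phosphate to G6pc, was not called by diet or by genotype label.

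Of 9 genes of fructose and glycerol entry, 3 were called higher and 1 lower on HFD (44.4% called). The glycerol channel Aqp9 rose by 0.37 ± 0.05 (adjusted p = 0.0104), glycerol kinase Gk by 0.60 ± 0.10 (adjusted p = 0.0183) and glycerol-3-phosphate dehydrogenase Gpd1 by 0.43 ± 0.06 (adjusted p = 0.0094), while Tkfc, a kinase of fructose breakdown, fell by 0.64 ± 0.09 (adjusted p = 0.0104). Of 19 glycogen genes 1 rose, Epm2a, by 0.37, and 1 fell, Gys2, the liver glycogen synthase, by 0.56 ± 0.11 (adjusted p = 0.0288). These 10.5% were near the share of all genes. Of 8 pentose phosphate genes Pgd alone was called (12.5%), and fell by 0.39. Of 3 other listed genes of the family of Slc2a2, 1 was called (33.3%), Slc2a9, which rose by 0.35.

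**Figure D4:**
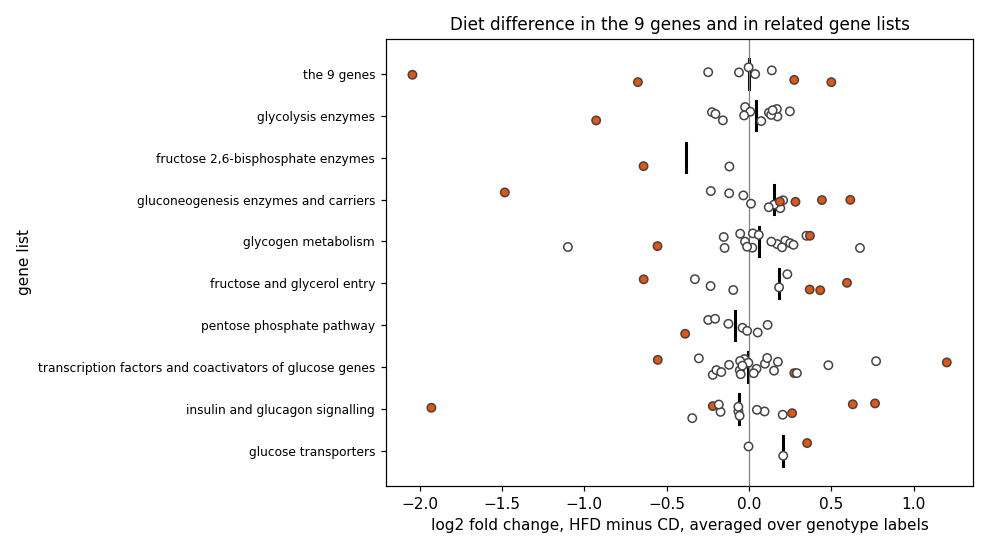
Log2 fold changes between HFD and CD, averaged over the genotype labels, for the 9 genes and for 9 lists of related genes (rows); each point is a gene, filled where its adjusted p in limma is under 0.05, and the black bar is the median of the list. G6pc at −2.04, Got1 at −1.48 and Igfbp1 at −1.93 lie farthest to the left and Nr1d1 at 1.20 farthest to the right.

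Of 23 transcription factors and coactivators of glucose genes, 2 were called higher and 1 lower on HFD, beside 9.89% of all genes. Nr1d1, a clock gene, rose by 1.20 ± 0.10 (adjusted p = 0.00358), from a mean of 25.5 to 58.3 FPKM. Cebpb, which activates Pck1, fell by 0.55 ± 0.12 (adjusted p = 0.0325), and Hnf4a rose by 0.28, a call lost without normalization between libraries (adjusted p = 0.119). Of 14 insulin and glucagon signalling genes, 3 rose and 2 fell (35.7% called). Igfbp1, a gene that insulin is known to lower, fell by 1.93 ± 0.39 (adjusted p = 0.0300), although its 2 CD-fed libraries under each label lay far apart (74.0 ± 35.4 and 51.5 ± 37.2 FPKM, SD, n = 2). Pik3r1, the regulatory subunit of phosphoinositide 3-kinase, rose by 0.63 ± 0.06 (adjusted p = 0.0036), Trib3 by 0.77 and Prkaca by 0.26, and Ptpn1 fell by 0.22, with an adjusted p of 0.0527 under median centring. None of the 23 related genes called here changed sign without normalization or with median centring, and 20 and 19 of them were still called. The hour and feeding state at which the livers were taken are not given in the sources used here, and their part in these results was not tested.

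By genotype label 0 genes of these lists were called with limma in any of the 3 comparisons. Of the 105 listed genes tested, 20 had an unadjusted p under 0.05 on HFD (9.58% of all genes did), 17 on CD (12.3% of all genes) and 21 averaged over the diets (13.5% of all genes). The lowest unadjusted p values on CD belonged to Foxo1, a factor that drives G6pc and Pck1 in the fasted liver (−0.88 ± 0.10, adjusted p = 0.0757), and Pfkfb3 (−1.14 ± 0.20, adjusted p = 0.154). On HFD they belonged to Gpd1 (0.66 ± 0.08, adjusted p = 0.107) and Cebpa (−0.41 ± 0.08, adjusted p = 0.228). The Cebpa difference had the opposite sign on CD (0.46 ± 0.08, adjusted p = 0.154, limma). Foxo1 stood at 18.0 ± 0.404 FPKM in f/f CD and 9.19 ± 0.276 in LKO CD (SD, n = 2). Between the same groups G6pc differed by 0.02 ± 0.14 and Pck1 by −0.36 ± 0.23 on the log2 scale (adjusted p = 0.970 and 0.558, limma). For Pck1 both LKO CD libraries were below both f/f CD libraries. The part of Foxo1 in these values was not tested.

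Markers of cell types and of liver zones were read beside these results. In bulk liver, fewer cells of a type and less RNA per cell cannot be told apart. G6pc, Pck1 and Fbp1 are known to be higher in periportal than in pericentral hepatocytes. The summed FPKM of 6 periportal markers was 1165 to 1323 on CD and 902 to 1048 on HFD, and that of 6 pericentral markers 5635 to 6515 on CD and 7140 to 8619.7 on HFD. Without Cyp2e1, the most abundant pericentral marker, the other 5 summed to 1701 to 1854 on CD and 1444 to 1850 on HFD, and without Cyp2f2 the other 5 periportal markers summed to 671 to 747 on CD and 559 to 682 on HFD, so that the diets overlapped in both sums. By label, these 5 periportal markers overlapped under f/f but not under LKO (671 to 747 on CD, 559 to 584 on HFD). The 5 pericentral markers overlapped under LKO but were lower on HFD under f/f (1835 to 1854 on CD, 1444 to 1695 on HFD). Of the periportal markers 2 fell, Sds and Cyp2f2, and 1 rose, and of the pericentral markers 2 rose, Cyp2e1 and Glul, and 1, Cyp1a2, fell. At an unadjusted p under 0.05 in limma, 4 of the 6 periportal markers were lower and 1 higher, beside 27.9% of all genes. The median log2 difference was −0.33 for the periportal and 0.16 for the pericentral markers. The part of zonation in the diet differences was not tested. Summed macrophage markers were at 75.7 to 89.2 FPKM in f/f CD, 69.3 to 78.3 in LKO CD, 52.5 to 67.0 in f/f HFD and 62.7 to 100 in LKO HFD, so that f/f HFD lay below both CD groups. Averaged over the labels, 0 of the 7 were called by diet with limma, nor had any an unadjusted p under 0.05. In the f/f-labelled libraries 0 were called, and 1 of 7, Clec4f, had an unadjusted p under 0.05, beside 19.2% of all genes. Clec4f fell there by 0.44 ± 0.12 (unadjusted p = 0.0101, adjusted p = 0.135, limma). Stellate markers summed to 6.64 to 9.86 FPKM over all libraries, endothelial markers to 36.6 to 55.6 and cholangiocyte markers to 17.9 to 31.5. Erythroid markers, whose cells also express Pklr, summed to 54.8 to 386. By diet averaged over the labels, 3 of the 8 hepatocyte markers were called higher and 1 lower on HFD with limma. In the same comparison 1 of 6 endothelial markers was called higher and 1 of 3 erythroid markers lower, beside 9.89% of all genes called. Of the stellate, cholangiocyte and adipocyte markers tested, 0 were called. Of 5 adipocyte markers 1, Cfd, was above 1 FPKM in any library, at 0.182 to 2.76 FPKM on CD, 0.488 to 1.87 in f/f HFD and 5.29 to 5.45 in LKO HFD, and the other 4 together were at 0.552 or less.

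Across the 8 libraries, Pearson's r on the normalized log2 scale is given as a description of values that share the diet groups. Among the members, Gckr and Pck1 were most opposed (r = −0.90), and Gckr and Pcx (r = 0.80), Pck1 and G6pc (r = 0.79) and Fbp1 and G6pc (r = 0.79) were the most alike. Of 6740 genes with a mean FPKM of 5 or more, those most like G6pc were 9030616G12Rik, Wipi1 and Ces2c (r = 0.99 each), and those most like Pck1 were Canx, Sec24a and Fgd6 (r = 0.98, 0.96 and 0.95). Those most like Pcx were Atg7, Iqsec2 and Cebpzos (r = 0.99 each), and those most like Pfkfb1 were Sec31a, Mfsd11 and Narf (r = 0.97, 0.96 and 0.96). For Fbp1 they were Cds2, Txnl4a and Ciapin1 (r = 0.97 to 0.93), for Gckr Rmdn1, Dpp4 and Ndufaf3 (r = 0.97 to 0.96), for Pklr Lrig1, Coa3 and Selenoh (r = 0.96 to 0.91), for Pfkl Urod, Vps52 and Kmt5c (r = 0.97 to 0.93) and for Slc2a2 Pusl1, Nudcd3 and Thoc7 (r = 0.97 to 0.91).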

How the data were processed

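Liver mRNA of 8 libraries, 2 for each of 4 groups, was analysed, each library holding 2 pooled livers. The authors removed adapters and trimmed reads with cutadapt 1.0, aligned the pairs to GRCm38 with TopHat2 2.0.7 and estimated gene levels with Cufflinks. The deposited values are FPKM for 38283 Ensembl genes, not on a log scale. Read depth cannot be taken from these FPKM. Symbols came from GENCODE M21 by identifier (36341 matched), and upstream sequences from RefSeq (GRCm38.p6).

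As in the study, genes had to exceed 1 FPKM in some library, 1 was added, and the log2 values were quantile normalized. The study's own permutation test was not run, and limma 3.58.1 in R 4.3.3, with a mean-variance trend and 1 fit of the 4 groups (4 residual and 2.8 prior degrees of freedom), was used in its place. FPKM is given without normalization. Ratios were tested with exact two-sided permutations of 4 libraries against 4. The limma fit and the permutation test were tried on simulated data. A ratio and some listed genes are not reported here. The members and lists were chosen with earlier results of these data known. Named genes are the 9 members, Rora, listed genes with an adjusted p under 0.05 (or the lowest p values) and the 3 genes most correlated with each member. Slc37a4, Cfd and single zone markers were named after their values were seen. Libraries that share a number come from different animals, so that p values measure the spread between pools. Alternatives were no normalization, median centring, a pseudocount of 0.1, other FPKM filters, no trend, a replicate block, fits of 4 libraries and each library left out. Figures were drawn with matplotlib 3.10.9.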

Additional observations from a re-analysis of the deposited data

Results flagged for a closer look

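Pklr was singled out because its genotype difference had opposite signs on the diets, by a test of that difference. The log2 genotype difference on HFD minus that on CD was −0.84 ± 0.31, with an unadjusted p of 0.0308 and an adjusted p of 0.576 over all genes in limma, so that it failed the correction. On CD the LKO-labelled libraries were the 2 highest, and on HFD the groups overlapped. Over all alternatives the value lay between −1.14 and −0.54, with adjusted p of 0.483 to 0.850.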

How the results depend on the processing

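For 63 estimates of the 9 genes, 949 of 981 values under the alternatives kept their direction and side of the threshold or, where not called, stayed within 1 SE, and no called estimate turned its sign. Of the estimates that were not called, 15 changed sign under at least 1 alternative. For diet averaged over labels, members called went from 4 to 2 without a low-FPKM filter, without the trend and under a replicate block. With single libraries left out 2 to 4 were called. G6pc and Pcx were called in all of these fits. Over all genes, 1151 of 11634 were called in the main fit, 704 of 20816 without the filter, 905 without the trend and 882 under the block. With single libraries left out, 374 to 816 of all genes were called. For diet in the f/f-labelled libraries the count of members went from 1 to 0 with 4 libraries alone. It went to 2 without normalization, with a pseudocount of 0.1 and with FPKM above 1 in all libraries. Over all genes these fits called 5, 165, 192 and 323 (of 9839), against 155 in the main fit. In the LKO-labelled libraries the count of members went to 0 with 4 libraries alone. It went to 2 with a pseudocount of 0.1 and with FPKM above 1 in all libraries. Over all genes these fits called 0, 406 and 570 (of 9839), against 351 in the main fit. The added member was Pcx. A fit of 4 libraries rests on fewer residual degrees of freedom, and the cause of the other changes was not tested. Genotype and interaction counts of members were 0 throughout. The log2 ratio of Pfkl to Fbp1 by diet was 0.26 to 0.42 with single libraries left out. The replicate numbers did not pair the libraries: libraries with the same number deviated from their group means with a Pearson's r of 0.145 and 0.0878 between the labels on CD and HFD, and 0.0644 and 0.0870 between the diets. With the replicate block, besides the fall from 4 to 2 members above, no other count of members and no call of the ratios given changed. The smallest exact permutation p that 4 pairs allow is 0.125. The 2 pools per group and FPKM without counts limit how small a difference could be seen.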
